A study of Homo sapiens with 6 samples.

Results

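The 42 genes described here encode the enzymes that make, salvage and interconvert purine, pyrimidine and deoxynucleotide building blocks. They were taken as the rows of the deposited count table whose gene symbol is on a list of 42 enzymes, and each symbol had a single row among the 31966 genes of the table. By role, 11 belong to de novo purine synthesis, 10 to purine salvage and purine nucleotide kinases, 5 to de novo pyrimidine synthesis, 7 to pyrimidine salvage and pyrimidine or general nucleotide kinases, and 9 to deoxynucleotide metabolism. All 42 passed the filter on low counts.

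RNA was sequenced from Kasumi-1, a widely used cell line derived from human acute myeloid leukaemia with the RUNX1-RUNX1T1 fusion. The 3 FBL knockdown samples expressed a doxycycline-inducible short hairpin RNA against FBL, the methyltransferase that 2'-O-methylates ribosomal RNA. The 3 control samples expressed an inducible hairpin against luciferase. Both groups received 100 ng/ml doxycycline for 72 h, the labels name 1 hairpin per group, and separate cultures for the replicates are not stated. The p-values therefore reflect only sample-to-sample spread, possibly of technical origin.

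Purine nucleotides are built stepwise on phosphoribosyl pyrophosphate until IMP is formed, and IMP is then turned into adenine and guanine nucleotides. Pyrimidines are made as a ring that is attached to phosphoribosyl pyrophosphate to give UMP, the parent of CTP. Salvage enzymes instead recycle free bases and nucleosides, and ribonucleotide reductase and thymidylate synthase make the deoxynucleotides used for DNA. Ribosomal RNA synthesis and DNA replication draw on these pools, and several drugs used in acute myeloid leukaemia are nucleoside analogs that salvage kinases activate.

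Library totals were 85556322 to 95023102 counts in FBL knockdown and 88541034 to 103148412 in control. FBL had 25.2, 14.7 and 20.5 RPKM (reads per kilobase of exon, scaled to library size) in FBL knockdown and 267, 254 and 251 RPKM in control. All 9 myeloid markers examined were present, with MPO at a mean of 6334 CPM (counts scaled to library size alone). Of these markers MPO was lower in FBL knockdown (log2 fold change -0.42), CD34 (0.67), ANPEP (0.60) and CEBPA (0.40) were higher, and the other 5 did not pass the test used for the members. The summed level of all 9 was 1589 to 1940.0 RPKM in FBL knockdown and 2044 to 2505 RPKM in control. Most of it was MPO, at 1372 to 1704 RPKM in FBL knockdown and 1874 to 2315 RPKM in control. The sum therefore does not describe the other markers, and the part of the markers in the enzyme values was not tested. The lymphoid markers with a row summed to 0.0899 to 0.198 RPKM in FBL knockdown and 0.190 to 0.244 in control, and the erythroid, fibroblast and epithelial markers to less. FBL knockdown replicate 1 and control replicate 2 carried the largest shares of GC-rich transcripts in their groups. The log2 deviations of the members from their means over all libraries were correlated with transcript GC content (42 genes of the same library). Pearson correlations were 0.451 in FBL knockdown replicate 1, 0.502 in control replicate 2 and -0.500 in control replicate 1. In the other 3 libraries they were -0.109 to -0.080, and these deviations include the difference between the groups. Without FBL knockdown replicate 1 and control replicate 2, 24 members were called lower and 3 higher, the same counts as with all libraries. Among all genes that fit called 3626 lower and 3798 higher, against 3141 lower and 2920 higher with all libraries. The measurements are relative to the scaled library total, and in bulk RNA fewer cells of a type and less RNA per cell cannot be told apart.

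Most of the enzyme mRNAs were lower after FBL knockdown. Of all 18486 tested genes, 32.8% passed in either direction. By edgeR's quasi-likelihood test with a Benjamini-Hochberg adjusted p under 0.05 over all of them, 24 of the 42 were lower, against 17.0% of all tested genes, and 3 were higher, against 15.8%. Among genes with a mean of 10 CPM or more, where 27.7% of genes were lower and 16.2% higher, 21 of 34 members were lower and 2 higher. The median log2 fold change was -0.37 over the 42 members and -0.01 over all tested genes, and at 10 CPM or more it was -0.36 for the members and -0.06 for all genes. With upper-quartile scaling the background split of calls moved to 2528 lower and 3597 higher, against 3141 lower and 2920 higher with the main scaling, and 19 members were lower and 3 higher. The libraries did not overlap between groups for 26 members that were lower and 3 that were higher, against 23.3% and 21.9% of all tested genes.

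**Figure D1:**
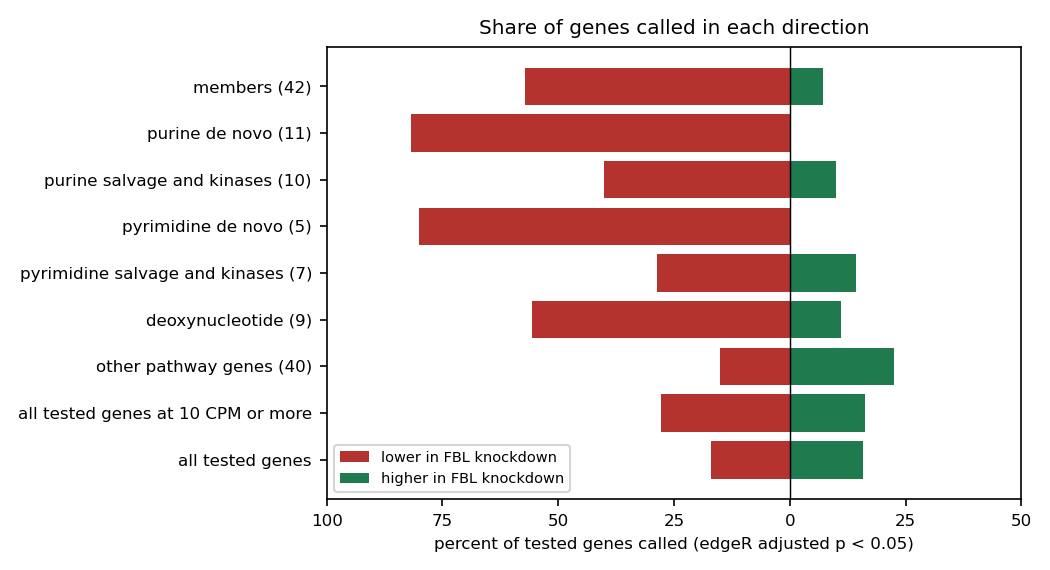
Percent of tested genes called lower (red, to the left) or higher (green, to the right) in FBL knockdown, for the 42 members, their 5 role groups, 40 other tested pathway genes and all tested genes; numbers of genes stand in brackets. De novo purine and pyrimidine enzymes have no green bar, while 81.8% and 80.0% of them were lower.

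By role, the counts were as follows, beside 17.0% lower and 15.8% higher over all tested genes. Among genes with a mean of 10 CPM or more these shares were 27.7% and 16.2%. In the de novo routes 13 of 16 enzymes were lower and 0 higher, with a median log2 fold change of -0.43. In salvage and the kinases 6 of 17 were lower and 2 higher, with a median of -0.05. In deoxynucleotide metabolism 5 of 9 were lower and 1 higher, with a median of -0.25. Whether the roles differ from each other was not tested.

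**Figure D2:**
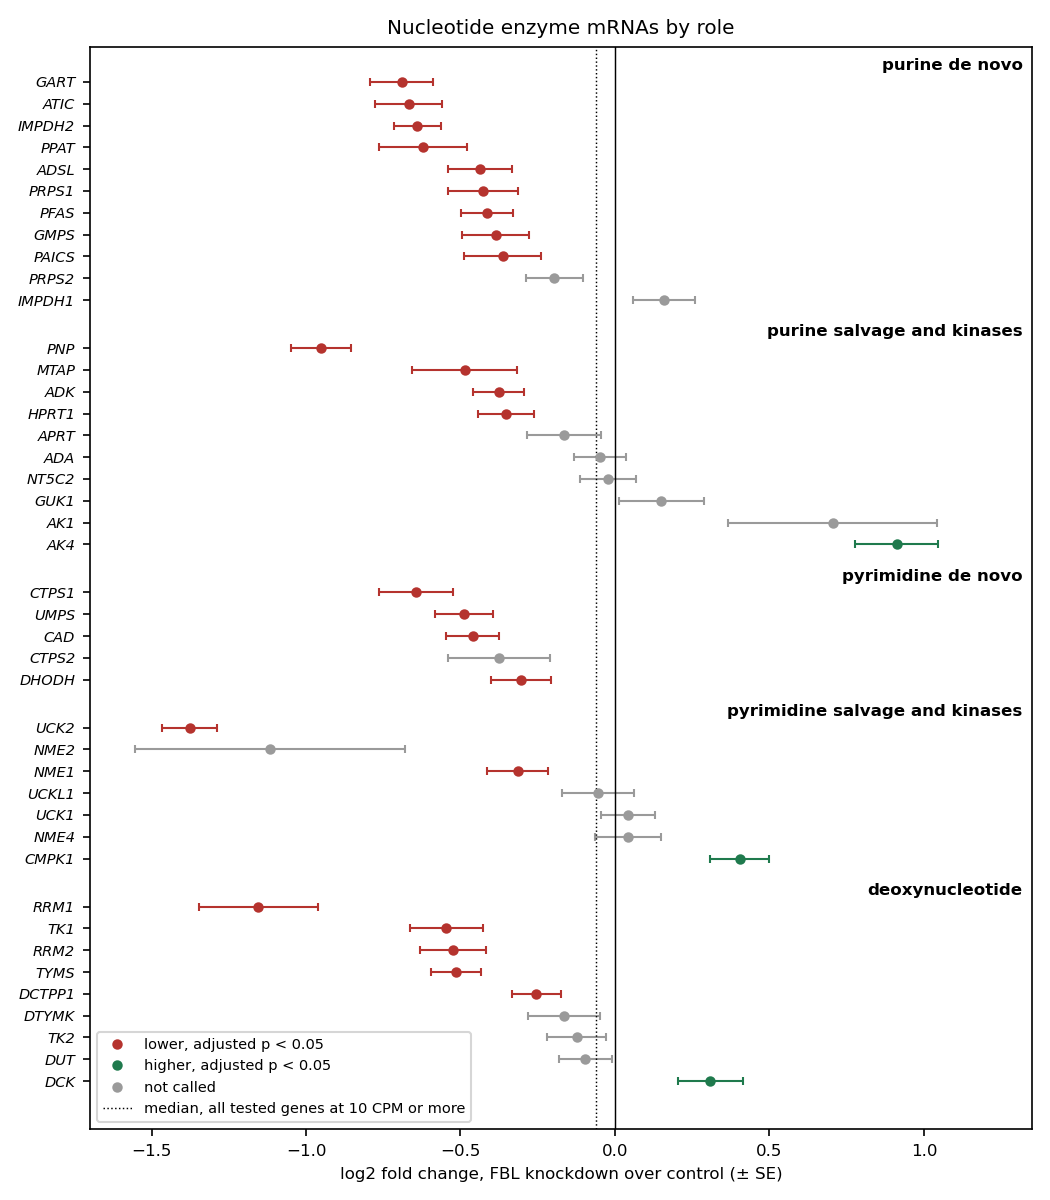
Log2 fold change, FBL knockdown over control, of all 42 members by role, with bars of 1 SE from edgeR (3 libraries per group); red and green mark an adjusted p under 0.05 and grey none. The members extend from UCK2 at -1.38 to AK4 at 0.91, and the dotted line is the median of all tested genes at 10 CPM or more.

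The start regions of PPAT and PAICS are shown first because these neighbours lie head to head, are transcribed in opposite directions and were both lower. PPAT catalyses the committed step of purine synthesis, and PAICS carries later steps. The interval between their starts (RefSeq and GENCODE, GRCh38.p14, chr4:56435616-56435740, plus strand, 125 bases) reads as follows, with PPAT to its left and PAICS to its right.
PPAT-PAICS interval: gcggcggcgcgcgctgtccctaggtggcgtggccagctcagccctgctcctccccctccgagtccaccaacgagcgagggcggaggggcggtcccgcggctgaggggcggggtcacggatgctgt

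Within RefSeq promoter windows of 250 bases before to 50 after the start, available for 40 members, the E-box CACGTG (its own reverse complement) was present in 9 members, against 8.77% of 27305 genes. The 9 were PPAT, PAICS, ATIC, DHODH, NME1 and DCTPP1, all lower in FBL knockdown, AK4 and DCK, both higher, and UCKL1, which was not called. PPAT and PAICS hold the same copy, which lies just inside PAICS, and it is shown here on each gene's strand beside those of a member that was lower and one that was higher, with the motif in capitals.
PPAT (chr4:56435780-56435809, minus strand): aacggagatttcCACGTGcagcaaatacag
PAICS (chr4:56435780-56435801, plus strand): ctgtatttgctgCACGTGgaaa
ATIC (chr2:215312001-215312030, plus strand): gggccggcgggcCACGTGataagcccggaa
DCK (chr4:70993521-70993550, plus strand): cgccccggccttCACGTGacctggcgtgcg
A match is a description of letters, and members holding the motif were found in both directions of change.

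Forms of the E2F motif, TTTCCCGC and TTTGGCGC, were searched on both strands. The first was in 3 of 40 members (DUT, PRPS2 and TYMS) against 1.98% of genes, and the second in 3 of 40 (DCK, DUT and GART) against 0.795%. TYMS, which was lower, and DUT, which was not called, carry the first form at a like distance before the start, shown with the motif (here as its reverse complement) in capitals.
TYMS (chr18:657602-657633, plus strand): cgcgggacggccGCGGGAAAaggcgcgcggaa
DUT (chr15:48332143-48332174, plus strand): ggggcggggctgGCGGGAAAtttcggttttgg
A match is again a description of letters, and the part of the motif in the enzyme values was not tested.

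In de novo purine synthesis 9 of 11 mRNAs were lower, against 17.0% of all tested genes. GART, whose protein carries out several of the early steps (GRCh38 chr21:33503931-33543491, minus strand), had 5.06, 4.99 and 4.85 RPKM in FBL knockdown and 9.25, 7.21 and 7.67 RPKM in control. The knockdown libraries lay close together and all below the lowest control library, and the log2 fold change was -0.69 ± 0.10 (SE; adjusted p = 0.000586, edgeR). ATIC, which carries out the last steps to IMP, had 9.75, 9.30 and 10.03 RPKM in FBL knockdown and 18.0, 13.6 and 14.7 RPKM in control, again without overlap (-0.67 ± 0.11, adjusted p = 0.00106, edgeR).

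PPAT was among the least abundant of these mRNAs, with 0.785, 0.845 and 0.906 RPKM in FBL knockdown and 1.57, 1.09 and 1.26 RPKM in control (-0.62 ± 0.14, adjusted p = 0.00704, edgeR). PAICS had 11.95, 13.7 and 13.1 RPKM in FBL knockdown and 20.0, 14.2 and 15.9 RPKM in control (-0.36 ± 0.12, adjusted p = 0.0443, edgeR). For PAICS the gap between the groups was narrow, at 13.7 RPKM in the highest knockdown library and 14.2 in the lowest control library. PPAT was 0.0657, 0.0618 and 0.0690 times as abundant as PAICS in FBL knockdown and 0.0783, 0.0772 and 0.0791 times in control.

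Phosphoribosyl pyrophosphate, the shared starting material, is made by PRPS1 and PRPS2. PRPS1 had 15.4, 15.0 and 15.1 RPKM in FBL knockdown and 23.0, 16.8 and 21.5 RPKM in control (-0.43 ± 0.11, adjusted p = 0.0147, edgeR). PRPS2 had 6.30, 6.78 and 6.37 RPKM in FBL knockdown and 7.95, 6.87 and 7.57 RPKM in control. The PRPS2 libraries did not overlap, but the change of -0.20 ± 0.09 missed the threshold (adjusted p = 0.129, edgeR). The remaining enzymes of the route to IMP, PFAS and ADSL, were lower by log2 fold changes of -0.41 and -0.44.

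At the branch to guanine nucleotides IMPDH2 passed the test and its isozyme IMPDH1 did not. IMPDH2, the form that is typically raised in proliferating cells, had 119.6, 113 and 114 RPKM in FBL knockdown and 186, 175 and 181 RPKM in control (-0.64 ± 0.08, adjusted p = 0.000168, edgeR). IMPDH1, which catalyses the same reaction, had 53.5, 43.1 and 45.1 RPKM in FBL knockdown and 38.9, 46.7 and 41.7 RPKM in control, with overlapping groups (0.16 ± 0.10, adjusted p = 0.247, edgeR). IMPDH2 was thus 2.23, 2.63 and 2.52 times as abundant as IMPDH1 in FBL knockdown and 4.77, 3.76 and 4.34 times in control. GMPS, which makes GMP from the product of this reaction, was lower at 2.38 to 2.64 RPKM in FBL knockdown and 2.90 to 3.77 RPKM in control (-0.39). Counts of GMPS pseudogene rows came to 6.87% of those of GMPS.

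**Figure D3:**
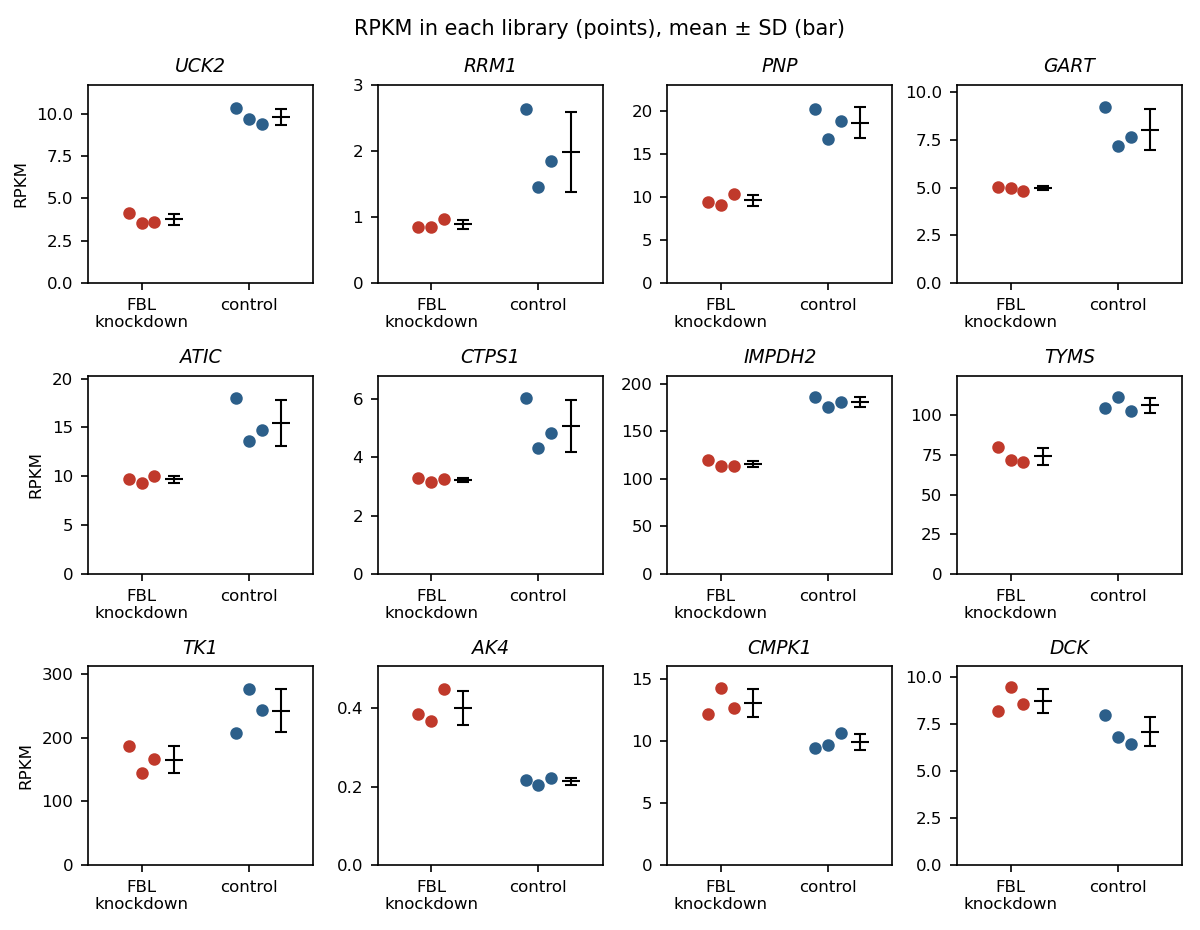
RPKM of 12 members in each library (points, FBL knockdown left in red, control right in blue; replicates 1 to 3 run left to right) with mean ± SD (n = 3 each); every axis starts at 0 and has its own scale. The 12 were picked from the 27 called members, so the lack of overlap in every panel follows from that choice. Over all 42 members the groups overlapped for 13. AK4, CMPK1 and DCK are the 3 panels in which FBL knockdown is higher.

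In purine salvage 4 of 10 mRNAs were lower and AK4 was higher, against 17.0% lower and 15.8% higher over all tested genes. PNP, which splits inosine and guanosine into base and sugar phosphate (chr14:20468954-20477094, plus strand), had 9.40, 9.08 and 10.3 RPKM in FBL knockdown and 20.3, 16.8 and 18.9 RPKM in control. Every knockdown library was below every control library and the mean was 1.94-fold lower (-0.95 ± 0.10, adjusted p = 8.16e-05, edgeR). MTAP, which recovers adenine from the by-product of polyamine synthesis, was near the low end at 0.119, 0.165 and 0.171 RPKM in FBL knockdown and 0.232, 0.180 and 0.229 RPKM in control (-0.49 ± 0.17, adjusted p = 0.0493, edgeR).

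The enzymes that return hypoxanthine, guanine and adenosine to nucleotides were also lower. HPRT1 ranged over 26.8 to 30.8 RPKM in FBL knockdown and 34.9 to 39.5 RPKM in control (-0.35), and ADK over 10.96 to 11.7 RPKM in FBL knockdown and 14.5 to 15.3 RPKM in control (-0.38). APRT, which salvages adenine and was among the most abundant members, had 188 to 239.5 RPKM in FBL knockdown and 202 to 276 RPKM in control, with overlapping groups. ADA, which deaminates adenosine, GUK1, which phosphorylates GMP, and NT5C2, which dephosphorylates IMP and GMP, also overlapped, with log2 fold changes of -0.05, 0.15 and -0.02 that did not pass.

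AK4, an adenylate kinase of the mitochondrial matrix (chr1:65147549-65232145, plus strand), had the largest increase among the members. It stood at 0.386, 0.367 and 0.448 RPKM in FBL knockdown and 0.216, 0.204 and 0.221 RPKM in control, without overlap (0.91 ± 0.13, adjusted p = 0.000581, edgeR). Its level was low, with 150 to 304 counts per library. The pseudogenes AK4P1 and AK4P3 together held 40.2% as many counts and were called higher too, by 1.00 and 0.92, so reads of AK4 and of its copies may not be fully separated. AK1, the cytosolic adenylate kinase, had 9 to 32 counts per library, that is 0.124, 0.129 and 0.0922 RPKM in FBL knockdown and 0.0361, 0.104 and 0.0706 RPKM in control, with overlapping groups (0.70 ± 0.34, adjusted p = 0.136, edgeR).

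In de novo pyrimidine synthesis 4 of 5 mRNAs were lower, against 17.0% of all tested genes. CAD, the large protein that carries the opening steps, had 21.8, 19.0 and 21.2 RPKM in FBL knockdown and 30.5, 27.2 and 27.9 RPKM in control (-0.46 ± 0.09, adjusted p = 0.00228, edgeR). UMPS, which completes UMP, had 2.66, 2.37 and 2.48 RPKM in FBL knockdown and 3.88, 3.33 and 3.37 RPKM in control (-0.49 ± 0.09, adjusted p = 0.00268, edgeR). In both genes the groups stood clearly apart. DHODH, the mitochondrial enzyme between them, ranged over 1.94 to 2.36 RPKM in FBL knockdown and 2.49 to 2.76 RPKM in control (-0.30).

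CTP is made from UTP by CTPS1 and CTPS2. CTPS1, the isozyme that lymphocyte proliferation depends on, had 3.29, 3.16 and 3.24 RPKM in FBL knockdown and 6.04, 4.32 and 4.83 RPKM in control, without overlap (-0.64 ± 0.12, adjusted p = 0.00224, edgeR). CTPS2 was less abundant, at 0.431, 0.614 and 0.582 RPKM in FBL knockdown and 0.814, 0.611 and 0.700 RPKM in control. Its groups overlapped by a small margin, and -0.38 ± 0.16 missed the threshold (adjusted p = 0.104, edgeR).

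The member with the largest change was UCK2, which phosphorylates uridine and cytidine and is the main activator of the nucleoside analog azacitidine (chr1:165827531-165911618, plus strand). UCK2 had 4.13, 3.52 and 3.62 RPKM in FBL knockdown and 10.3, 9.67 and 9.39 RPKM in control. The knockdown libraries were all far below the controls, with a mean 2.61-fold lower (-1.38 ± 0.09, adjusted p = 1.39e-05, edgeR). The related kinases UCK1 and UCKL1 did not pass the test.

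UCK1 had 16.1, 13.6 and 14.8 RPKM in FBL knockdown and 13.8, 15.4 and 14.1 RPKM in control (0.04 ± 0.09, adjusted p = 0.747, edgeR). UCKL1 had 17.7, 14.6 and 15.4 RPKM in FBL knockdown and 14.0, 19.2 and 16.5 RPKM in control (-0.05 ± 0.12, adjusted p = 0.749, edgeR). Both overlapped between groups. UCK2 was 0.257, 0.258 and 0.245 times as abundant as UCK1 in FBL knockdown and 0.744, 0.627 and 0.665 times in control.

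Among the mono- and diphosphate kinases, CMPK1, which phosphorylates UMP and CMP, was higher, at 12.2, 14.3 and 12.6 RPKM in FBL knockdown and 9.43, 9.62 and 10.6 RPKM in control (0.40 ± 0.10, adjusted p = 0.00809, edgeR). NME1, a nucleoside diphosphate kinase, was lower, at 39.4, 45.2 and 48.9 RPKM in FBL knockdown and 55.8, 52.7 and 58.3 RPKM in control (-0.31 ± 0.10, adjusted p = 0.0311, edgeR). Neither gene overlapped between groups. Its neighbour NME2 was listed at 0.213, 0.305 and 0.229 RPKM in FBL knockdown and 0.211, 0.955 and 0.463 RPKM in control, with overlapping groups and a wide spread among the control libraries (-1.12 ± 0.44, adjusted p = 0.0732, edgeR). The readthrough gene NME1-NME2 shares 18.6% of the NME1 and 22.9% of the NME2 exon bases, and the pseudogene row NME2P1 held 4448 counts over the 6 libraries, against 599 for NME2, so the level of NME2 is uncertain. NME4, the mitochondrial form and the member with the highest mean CPM, overlapped between groups (0.04).

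In deoxynucleotide metabolism ribonucleotide reductase, which turns ribonucleotides into deoxynucleotides, was lower in both subunits. RRM1, the large subunit (chr11:4094707-4138876, plus strand), had 0.853, 0.846 and 0.969 RPKM in FBL knockdown and 2.65, 1.46 and 1.85 RPKM in control. The control libraries spread widely, yet the lowest of them was above all knockdown libraries (-1.15 ± 0.19, adjusted p = 0.00123, edgeR). RRM2, the small subunit, had 4.89, 5.37 and 5.74 RPKM in FBL knockdown and 8.54, 6.86 and 7.73 RPKM in control (-0.52 ± 0.11, adjusted p = 0.00371, edgeR). RRM1 was 0.175, 0.158 and 0.169 times as abundant as RRM2 in FBL knockdown and 0.310, 0.213 and 0.240 times in control.

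Thymidine nucleotides come from TYMS, which methylates dUMP, and from salvage by the cytosolic kinase TK1 and the mitochondrial kinase TK2. TK1 had 187, 144 and 166 RPKM in FBL knockdown and 208, 276 and 243 RPKM in control (-0.55 ± 0.12, adjusted p = 0.00514, edgeR). TK2 had 0.991, 1.05 and 1.06 RPKM in FBL knockdown and 1.13, 1.11 and 1.16 RPKM in control (-0.12 ± 0.10, adjusted p = 0.346, edgeR). For both genes every knockdown library was below every control library, but the change of TK2 missed the threshold. TYMS ranged over 70.4 to 80.3 RPKM in FBL knockdown and 103 to 111 RPKM in control (-0.51), and 39.1% of its exon bases lie opposite the gene ENOSF1, whose reads cannot be told apart without a stated strand setting.

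DCK, which phosphorylates deoxycytidine and activates cytarabine, was higher, at 8.20, 9.43 and 8.53 RPKM in FBL knockdown and 7.94, 6.82 and 6.45 RPKM in control (0.31 ± 0.11, adjusted p = 0.0437, edgeR). The margin between the lowest knockdown and the highest control library was small. DCTPP1, which removes surplus dCTP, was lower (-0.25), although 42.1% of its exon bases lie opposite ZNF771. DTYMK, which phosphorylates dTMP, and DUT, which removes dUTP, overlapped between groups, with log2 fold changes of -0.16 and -0.10.

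A list of 11 S-phase genes (MCM2 to MCM6, PCNA, CCNE1, CCNE2, CDC6, CDT1 and E2F1) was read from the same fit. Of them 9 were lower and 0 higher, against 17.0% and 15.8% of all tested genes. At a mean of 10 CPM or more, which 10 of the 11 reached, the shares of all genes were 27.7% and 16.2%. The median log2 fold change of the 11 was -0.80, against -0.01 over all tested genes and -0.06 over those at 10 CPM or more. The summed level of the 11 was 239 to 280 RPKM in FBL knockdown and 412 to 422 RPKM in control. None of the 11 was at 0 in any library. CCNE2 and E2F1 were the 2 that did not pass, both at -0.20. The part of cell cycle composition in the enzyme values was not tested.

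Isozymes or partners, 10 pairs in all, were compared within libraries, as the log2 ratio of counts per length. With 3 libraries against 3 the smallest p that an exact permutation test allows is 0.1, so no pair could pass 0.05. The ratio was lower in FBL knockdown without overlap for UCK2/UCK1 (difference -1.42), UCK2/UCKL1 (-1.33), IMPDH2/IMPDH1 (-0.80), RRM1/RRM2 (-0.59), PPAT/PAICS (-0.26) and PRPS1/PRPS2 (-0.22), each with a two-sided exact permutation p = 0.1 and 0.167 after Benjamini-Hochberg adjustment over the 10 pairs. PRPS1/PRPS2 was separated only narrowly, at 2.45 in the nearest library of each group. TK1/TK2 (-0.42, exact permutation p = 0.2), CTPS1/CTPS2 (-0.24, exact permutation p = 0.4), AK4/AK1 (0.10, exact permutation p = 0.9) and NME1/NME2 (0.55, exact permutation p = 0.6) overlapped.

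**Figure D4:**
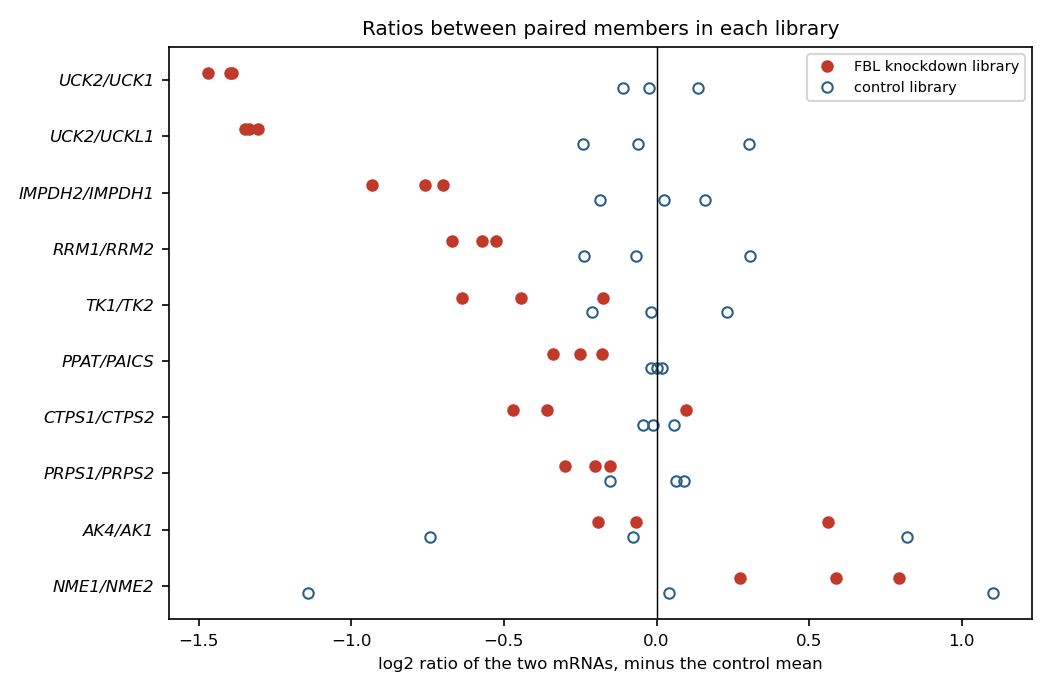
Log2 ratio of the paired mRNAs in each library (FBL knockdown filled red, control open blue), shown minus the control mean of that pair. UCK2/UCK1 and UCK2/UCKL1 lie furthest below the controls, at differences of -1.42 and -1.33, while AK4/AK1 and NME1/NME2 overlap widely.

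Levels per length put TK1, APRT, NME4 and IMPDH2 at the top of the control libraries, with means of 242 ± 34.2, 239.8 ± 37.3, 196 ± 23.5 and 181 ± 5.17 RPKM (SD, n = 3). In FBL knockdown the same 4 genes averaged 165 ± 21.6, 213 ± 25.6, 201 ± 21.9 and 116 ± 3.53 RPKM (SD, n = 3), so the mean of TK1 was below those of APRT and NME4 there. The means of TK1 and APRT in control, and of APRT and NME4 in FBL knockdown, lay closer together than the SD of either gene. Within libraries, TK1 was above APRT in every control library and APRT above NME4 in every FBL knockdown library. These differences were not tested. At the low end were AK1, MTAP and AK4, all below 0.5 RPKM in every library. Summed over the 42 members, 0.410%, 0.376% and 0.412% of all counts fell on them in FBL knockdown and 0.483%, 0.474% and 0.481% in control.

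Other genes of nucleotide metabolism were read from the same fit. A list of 53 further enzymes and transporters gave 48 with a row and 40 tested. Of these 6 (15.0%) were lower and 9 (22.5%) higher, against 17.0% and 15.8% of all tested genes. The median log2 fold change of the 40 was 0.08. Among called genes with a mean of at least 1 CPM, the largest decreases were in ITPA, which removes ITP (-0.86), GMPR2, which turns GMP back into IMP (-0.68), NUDT5, which hydrolyses ADP-ribose (-0.62), and ADSS2, the broadly expressed isozyme of AMP synthesis (-0.39). ITPA had 19.5, 15.6 and 17.1 RPKM in FBL knockdown and 31.3, 32.3 and 31.1 RPKM in control (adjusted p = 9.52e-05, edgeR).

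Among called genes with a mean of at least 1 CPM, the largest increases were in CMPK2, a mitochondrial UMP-CMP kinase (1.08), ADSS1, the muscle-type isozyme of AMP synthesis (0.70), the nucleoside transporter SLC29A3 (0.54) and the mitochondrial nucleotidase NT5M (0.47). CMPK2 had 5.15, 5.85 and 5.40 RPKM in FBL knockdown and 2.86, 2.60 and 2.34 RPKM in control (adjusted p = 6.18e-05, edgeR). ADSS1 had 1.61, 1.58 and 1.58 RPKM in FBL knockdown and 0.947, 1.00 and 1.01 RPKM in control. In both genes the groups stood apart. Without FBL knockdown replicate 2, FBL knockdown replicate 3 or control replicate 3, the count of lower genes on this list was 3.

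Of the 27 called members, 18 kept their call in each of the 19 alternative analyses that tested them, among them UCK2, RRM1, PNP, GART, ATIC, IMPDH2, CTPS1, AK4 and CMPK1. The other 9 lost it in some: PAICS in 12 of 19, MTAP in 12 of 18, DHODH, DCK and DCTPP1 in 9 of 19, NME1 in 7, GMPS in 5, PRPS1 in 3 and HPRT1 in 2. Upper-quartile scaling ended those of PAICS, MTAP, DHODH, NME1 and DCTPP1, and scaling by library totals only those of PAICS, MTAP, NME1 and DCK. Limma-trend on log2 RPKM with either pseudocount ended those of PAICS, MTAP, DHODH and DCK, and limma voom those of PAICS and MTAP. The call was also lost without the filter for DHODH, DCK and DCTPP1, under the stricter filter for PAICS and NME1, with RLE scaling and DESeq2 for DCTPP1, and with the legacy dispersion for MTAP.

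Single libraries mattered as follows. PAICS lost it without any library but control replicate 2 (adjusted p 0.0818 to 0.128, edgeR) and so did MTAP (0.0683 to 0.150). DHODH lost it without FBL knockdown replicate 2, FBL knockdown replicate 3, control replicate 1 or control replicate 3 (0.0553 to 0.143). DCK and DCTPP1 lost it without FBL knockdown replicates 2 and 3 and control replicates 2 and 3, each left out alone (DCK 0.0531 to 0.184, DCTPP1 0.0656 to 0.184).

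GMPS lost its call without FBL knockdown replicate 1, 2 or 3 or control replicate 3 (adjusted p 0.0614 to 0.0655, edgeR). NME1 lost it without FBL knockdown replicate 1, FBL knockdown replicate 2 or control replicate 3 (0.0813 to 0.123). PRPS1 lost it without FBL knockdown replicate 2, FBL knockdown replicate 3 or control replicate 3 (0.0619 to 0.0766). HPRT1 lost it without FBL knockdown replicate 3 alone (adjusted p = 0.0644, edgeR). In the other direction, NME2 passed without control replicate 1 (-1.49, adjusted p = 0.00158, edgeR), and PRPS2 (-0.26), CTPS2 (-0.48), GUK1 (0.30) and AK1 (1.09) passed without control replicate 2.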

How the data were processed

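Counts of reads per gene, as whole numbers for 31966 Ensembl identifiers and 6 libraries, were deposited by the authors beside exon lengths in bases, and a further deposited table holds RPKM. Per the submitters' processing notes the tools were featureCounts, HISAT2, cutadapt 1.18 and edgeR, on build GRCh38. How multiply matching reads were handled, whether strand was used and which annotation release applied were not given in the sources used here. Further members also share exon bases with other genes. Among them are NT5C2 (36.7%, opposite strand), AK1 (33.5%, same strand), TK2 (25.0%, either strand), RRM2 (20.2%, same strand) and ADSL (18.9%, same strand). Reads of these members may not be fully separated from those of the overlapping genes. All 191796 deposited RPKM values were recomputed from counts, lengths and TMM-scaled totals within a relative tolerance of 1e-06. Per the labels' protocols, total RNA went into NEBNext Ultra libraries; the mass spectrometry of nascent proteins was not analysed here.

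Counts were filtered with filterByExpr (minimum count 10, minimum total 15), scaled by TMM and compared between 3 FBL knockdown and 3 control libraries with edgeR 4.0.16 (glmQLFit, glmQLFTest, R 4.3.3), with Benjamini-Hochberg adjustment over 18486 genes and a threshold of 0.05. Log2 fold changes are knockdown over control, and SE derives from the F statistic. Pair ratios used counts + 0.5 per length. Positions came from GENCODE v29 (31848 of 31966 genes matched) and promoters from RefSeq. The deposited length equalled the GENCODE v29 exon bases for 39 of the 42 members. It differed for CTPS1 (5462 against 11517 bases), PRPS1 (2280 against 2623) and UCK2 (6756 against 7067). RPKM and pair ratios used the deposited length, so levels of these genes against others depend on it, while differences between the groups do not. No libraries were duplicates (chi-square per gene 33.7 to 106 within groups). On simulated data for this comparison (18446 genes) the test recovered 10% of genes changed 1.25-fold, 74% at 1.5-fold and 100% at 2-fold, with a false share of 6.58%. The simulation changed 50 genes at each fold, far fewer than were called in the data, and held no GC difference between libraries. These rates may therefore not carry over to the data.

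The members and lists were chosen with earlier results of these data known. Values in every library are given for the 3 largest called changes of each role, every member called higher and both genes of each pair. Of the other pathway genes, those with the 4 largest called changes per direction at 1 CPM or more are named. Alternatives included DESeq2 1.42.0 and limma 3.58.1 (voom, and limma-trend on log2(RPKM + 1) and log2(RPKM + 0.1), which understates changes of low genes).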

Additional observations from a re-analysis of the deposited data

How the results depend on the processing

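Across 19 alternatives, 793 member values were recomputed: 702 kept their call or its absence, 68 lost a call, 9 gained one and 14 turned sign, all 14 in members not called. Leaving out each library in turn gave 17 to 25 members lower and 2 to 4 higher, 3923 to 6943 called genes in all, and 3 to 6 lower and 7 to 11 higher among other pathway genes. Lower other pathway genes numbered 3, against 6, with upper-quartile scaling, library totals only and the stricter filter (1 CPM in 3 libraries, with 5 CPM on average). DESeq2 called 23 members lower and 3 higher, and limma voom 22 and 3. The legacy dispersion, the correction for GC content and the fit without the most GC-rich libraries were chosen after seeing the data. The GC correction gave 28 members lower and 3 higher, and 16 higher other pathway genes. It also raised the calls among all genes, to 3934 lower and 4512 higher, against 3141 lower and 2920 higher in the main fit. The causes were not tested.

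The replicate block, which pairs equal replicate numbers, gave 3833 called genes, 17 members lower and 2 higher, and 3 lower other pathway genes. With it, 8 members passed no longer: PAICS, MTAP, DHODH, DCK, DCTPP1, NME1, GMPS and HPRT1. Deviations of same-numbered samples correlated at -0.462, -0.377 and 0.127, and no FBL knockdown sample correlated best with the control of its own number. The largest value, 0.515, was between FBL knockdown replicate 1 and control replicate 2, the most GC-rich libraries of their groups. Because libraries also differed in GC-rich share, these values cannot tell whether the numbers pair the samples.

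Signs turned for ADA with upper-quartile scaling (0.016), the stricter filter (0.001) and GC correction (0.0196), and for NT5C2 under the same 3 settings (0.0427, 0.0267 and 0.0121), without the most GC-rich libraries (0.0012) and among the fits that leave out a library (-0.0601 to 0.0191). UCKL1 turned with upper-quartile scaling (0.0101) and without control replicate 2 (-0.1617 to 0.0603 over the left-out libraries), UCK1 without FBL knockdown replicate 1 (-0.0088 to 0.0942), and NME4 without FBL knockdown replicate 1 or control replicate 1 (-0.0414 to 0.1274). Of the pairs, NME1/NME2 turned without control replicate 2 (-0.0203 to 1.1022) and with RPKM + 1 (-0.0424), AK4/AK1 without FBL knockdown replicate 3 or control replicate 2 (-0.2708 to 0.5102), and PPAT/PAICS with RPKM + 1 (0.0177). The depth of 9 to 32 counts limits AK1 and its ratio.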
